A study of Mus musculus with 44 samples.

Results

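The 10 genes described here belong to muscle regeneration and to the response of muscle to loss of its nerve: Pax7, Myod1, Myog, Mymk, Myh3, Myh8, Chrna1, Chrng, Runx1 and Ncam1. They were taken as a list of gene symbols matched to Ensembl identifiers. The rule itself uses no measured value, but the list was drawn up with earlier results of these data known. Of the 10, 9 were among the 43411 gene identifiers of the table analysed, and Myh3, the embryonic myosin heavy chain, was not analysed here. All 9 had a mean normalized count above 3 and entered the test, which covered 17037 genes.

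RNA was sequenced from the back skin of 44 wild-type (WT) female C57Bl/6 mice that were 8 weeks old at the start. Daily subcutaneous injections of 100 µL were given into the back, either saline (10 mice), or bleomycin at 1 U/mL, an agent that breaks DNA and induces dermal fibrosis, for 2 weeks (10 mice) or 4 weeks (10 mice). Further mice received bleomycin for 4 weeks and were then left untreated for 6 weeks (6 mice) or 10 weeks (8 mice). The concentration is that of the labels and methods, and a supplementary figure legend for these mice gives a lower one. The labels give no harvest time for the saline mice, and the recovery mice were older at harvest than the mice given bleomycin for 2 or 4 weeks, so time since treatment and age cannot be told apart.

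The biopsies held skin and muscle together. The epidermal keratin Krt14 lay between 26455 and 73649 normalized counts over the 44 mice, and the dermal collagen Col1a1 lay between 8515 and 67224. The skeletal actin Acta1 lay between 25163 and 111711 normalized counts. The recovered reads per mouse ranged from 8509094 to 15285577, with a median of 11310008. The lowest median correlations with their own group were those of mouse 2 of the 2-week bleomycin group (0.938) and saline mouse 1 (0.942), the pair left out together below. They were followed by mouse 4 of the 10-week recovery group (0.947), saline mouse 6 (0.949) and mouse 7 of the 10-week recovery group (0.954), each of which was left out singly. In saline mouse 1 the mature muscle fibre score, the mean log2(normalized count + 1) of 21 genes of differentiated fibres, was 10.89 against a group median of 12.26.

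Skeletal muscle lies beneath mouse skin as a thin sheet, the panniculus carnosus. Its resident stem cells, the satellite cells, carry PAX7, and on injury they divide, switch on MYOD1 and then MYOG, fuse through myomaker (MYMK) and make fibres that first carry embryonic and neonatal myosins such as MYH8. In a mature innervated fibre the acetylcholine receptor sits at the junction and contains the adult ε subunit (Chrne), whereas developing and denervated fibres make the fetal γ subunit (Chrng) and place receptors along the fibre, and they also raise Runx1 and Ncam1. The MYOD1 family binds DNA at the E-box, CANNTG.

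The bases upstream of 3 genes that rose together under bleomycin are shown to place the E-boxes next to their values. Each run holds the 250 bases before the RefSeq start, 5′ to 3′ on the strand of the gene, from GRCm38.p6, with every CANNTG in capitals. The first is Chrna1, at chr2:73580339-73580588 on the minus strand, the second Chrng, at chr1:87205561-87205810 on the plus strand, and the last Myog, at chr1:134289754-134290003 on the plus strand.
Chrna1: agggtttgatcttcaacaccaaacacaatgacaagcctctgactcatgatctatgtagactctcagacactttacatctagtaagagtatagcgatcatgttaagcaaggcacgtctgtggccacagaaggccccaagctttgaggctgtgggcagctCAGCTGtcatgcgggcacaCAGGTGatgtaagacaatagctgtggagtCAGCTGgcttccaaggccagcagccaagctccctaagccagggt
Chrng: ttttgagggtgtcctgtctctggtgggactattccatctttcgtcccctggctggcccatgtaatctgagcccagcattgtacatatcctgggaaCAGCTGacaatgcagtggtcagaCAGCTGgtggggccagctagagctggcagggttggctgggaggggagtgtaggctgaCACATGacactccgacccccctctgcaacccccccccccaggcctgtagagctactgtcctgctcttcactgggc
Myog: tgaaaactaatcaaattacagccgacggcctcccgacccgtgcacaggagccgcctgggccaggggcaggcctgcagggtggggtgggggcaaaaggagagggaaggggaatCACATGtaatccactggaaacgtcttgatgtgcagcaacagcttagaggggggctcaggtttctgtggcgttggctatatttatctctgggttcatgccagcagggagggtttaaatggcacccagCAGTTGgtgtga

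Both receptor genes held 3 E-boxes, of which 2 were CAGCTG. In Chrna1 the CAGCTG sites began 92 and 44 bases before the start, with a CAGGTG at 73 bases between them. In Chrng they began 155 and 132 bases before the start. Myog held 2 E-boxes, at 138 and 12 bases. CANNTG reads the same on both strands and includes CAGCTG and CAGGTG. Among all 32851 windows of this length, 66.2% held at least 1 CANNTG, 12.2% held 3 or more and 13.0% held CAGCTG on either strand. The window of Chrne, the adult subunit, held 1 CAGCTG, and that of Pax7 held no CANNTG. Runx1, which was called in no comparison with saline, has more than 1 RefSeq start. Its window at chr16:92826075-92826324 also held 3 E-boxes, a CAACTG at 167, a CAGGTG at 136 and a CACGTG at 71 bases. Its window at chr16:92697330-92697579 held no CANNTG. The window of Myh8 held 1 E-box, a CAAATG at 32 bases. A match is a description of the letters, and binding was not measured. In GENCODE a longer Chrng transcript begins upstream of the Chrng window, which lies in the intron of that transcript but for its last base. The last bases of the Myog window, its CAGTTG at 12 bases included, belong to the first exon. The Pax7 window and the Runx1 window with no CANNTG lie wholly within their genes. The last bases of the Chrne window and of the other Runx1 window, its CACGTG included, also lie within their genes.

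Bleomycin raised most of the 9 genes. A gene was called when its absolute fold change was above 1.5 and its adjusted p-value, by limma over all 17037 genes, was below 0.05. At 2 weeks, 7 of the 9 were called higher than in saline, where 9.3% of all genes tested were. At 4 weeks, 8 of the 9 were called higher, against 10.5% of all genes. After 6 weeks of recovery the count was 4 of the 9 against 3.33%, and after 10 weeks it was 3 of the 9 against 2.05%. None of the 9 was called lower than saline in any of these comparisons, where 7.43%, 7.37%, 1.71% and 0.998% of all genes were. These shares of all genes also stand beside the counts of other gene lists below. The median log2 fold change of the 9 was 2.23, 3.09, 0.69 and 0.49 in the same order, and that of all genes tested was 0 in each. The 4 comparisons share the saline mice. In a biopsy of whole skin, fewer or more muscle cells and less or more RNA per cell cannot be told apart.

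**Figure D1:**
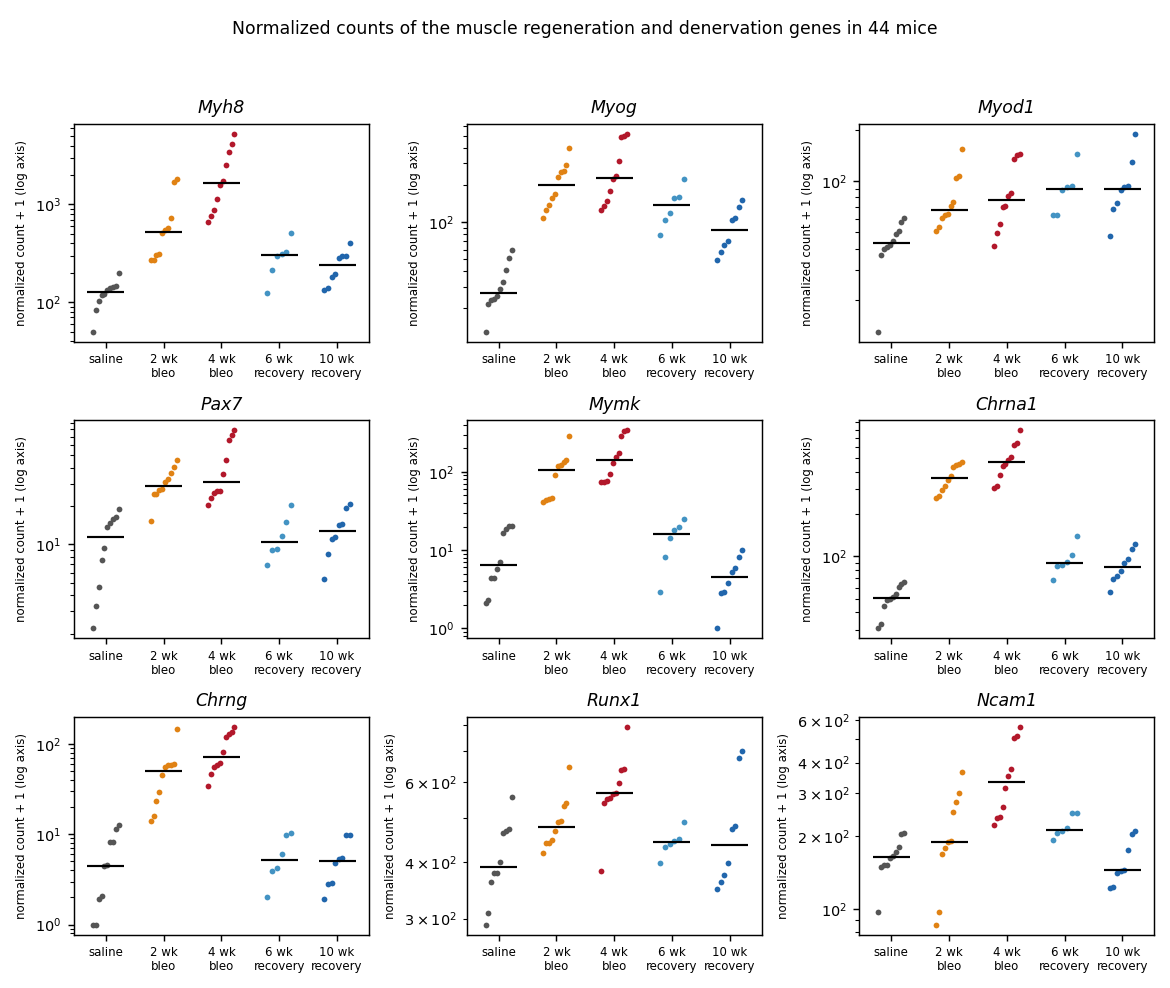
Normalized count + 1 of each gene on a log axis (vertical) in the 5 groups (horizontal). Each point is 1 mouse, spread sideways in order of value, and each bar is the group median. Mymk and Chrng show the widest distance between the 4-week and saline medians, at 141 and 70.2 against 5.38 and 3.52. The lowest Chrng at 2 weeks, 12.9, lies close to the highest in saline, 11.8, and the groups of Runx1 overlap.

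**Figure D2:**
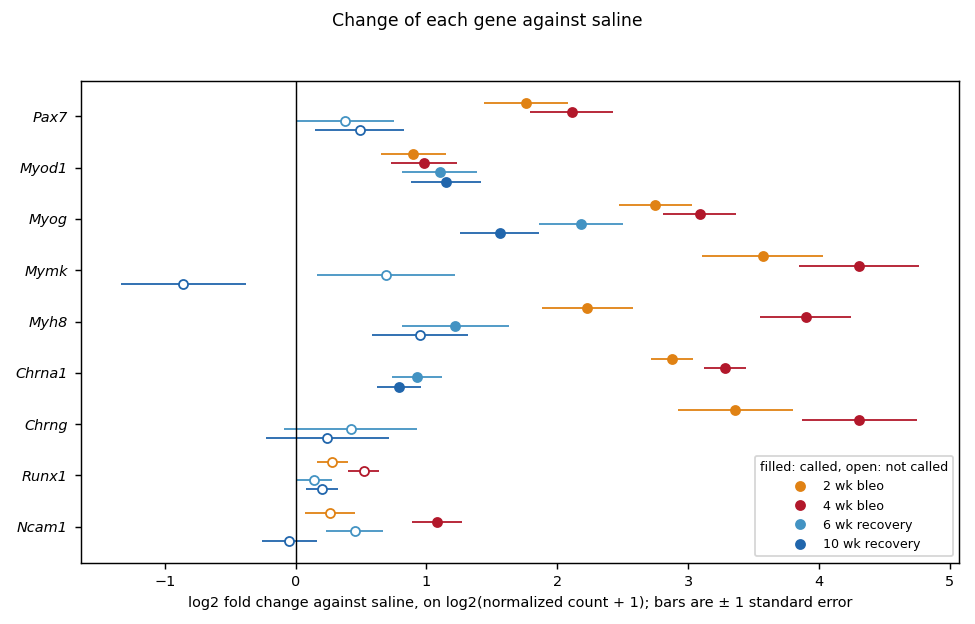
Log2 fold change against saline (horizontal) of each gene (vertical) at 2 and 4 weeks of bleomycin and at 6 and 10 weeks of recovery, with bars of ± 1 standard error. Filled points were called and open points were not. Myod1 stays between 0.9 and 1.15 in all 4 comparisons, whereas Chrng goes from 4.31 at 4 weeks of bleomycin to 0.24 at 10 weeks of recovery.

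Pax7, the paired box factor of satellite cells (chromosome 4, 139737062 to 139833528 in the GENCODE annotation of GRCm38, as for each gene here), ran from 1.19 to 18.1 normalized counts in saline with a median of 10.4. It ran from 14.3 to 45.2 with a median of 28 at 2 weeks, and from 19.4 to 77.7 with a median of 30.1 at 4 weeks. Every 4-week mouse was above every saline mouse, and 9 of 10 were at 2 weeks. The rise was 3.39-fold at 2 weeks (log2 1.76 ± 0.32 SE, limma adjusted p = 2.66e-05) and 4.31-fold at 4 weeks (log2 2.11 ± 0.32 SE, limma adjusted p = 1.23e-06). In recovery Pax7 lay between 5.93 and 19.5 at 6 weeks and between 4.43 and 19.6 at 10 weeks, both overlapping saline and both not called (log2 0.38 ± 0.37 and 0.49 ± 0.34 SE). These are few reads, with 3 saline mice at or under 3 reads. Of the 5 other satellite cell genes tested, 3 were called higher at both 2 and 4 weeks, namely Myf5, Cdh15 and Itga7, and Pax3 and Fgfr4 were not. Myf5, another myogenic factor, rose most, by log2 1.7 ± 0.29 SE at 2 weeks and 2.06 ± 0.29 SE at 4 weeks. Its saline level also rests on few reads, with 4 of 10 saline mice at 3 reads or fewer. Cdh15, M-cadherin, was the largest rise after 6 weeks of recovery (log2 0.77 ± 0.24 SE). This call was lost, as was that of Itga7, without saline mouse 1 and 2-week bleomycin mouse 2. After 10 weeks of recovery none of the 5 was called higher and Fgfr4, a growth factor receptor, was called lower by log2 -0.86 ± 0.22 SE.

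Myod1, the myogenic factor that commits satellite cells to muscle (chromosome 7, 46376474 to 46379099), was called higher in all 4 comparisons with saline, by amounts between 1.86-fold and 2.22-fold. Its saline values ran from 11.9 to 59.4 with a median of 42.3, and the lowest was saline mouse 1. The medians were 66.6 at 2 weeks (49.4 to 153), 75.9 at 4 weeks (40.5 to 142), 89.2 after 6 weeks of recovery (61.7 to 142) and 89.2 at 10 weeks (46.1 to 189). The bleomycin groups overlapped saline, and the 6-week recovery group did not. The log2 fold changes were 0.9 ± 0.25, 0.98 ± 0.25, 1.1 ± 0.29 and 1.15 ± 0.27 SE, and all 4 were called (limma adjusted p = 0.00403, 0.00161, 0.0118 and 0.00575). No direct comparison between the 4 treated groups was called for Myod1. With the median rise at 4 weeks set to 100%, it stood at 140% in both recovery groups.

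Myog, myogenin, which drives differentiation of myoblasts and rises in denervated fibres (chromosome 1, 134289989 to 134292548), was also called higher in all 4 comparisons. In saline it ran from 11.9 to 57.9 normalized counts with a median of 25.9. It ran from 107 to 397 at 2 weeks with a median of 200, and from 125 to 519 at 4 weeks with a median of 228. After 6 weeks of recovery it still ran from 77 to 223 with a median of 137, above every saline mouse, and at 10 weeks from 48.7 to 151 with a median of 86, where 6 of 8 mice were above every saline mouse. The fold changes were 6.74 at 2 weeks, 8.53 at 4 weeks, 4.54 after 6 weeks of recovery and 2.95 at 10 weeks, on log2 2.75 ± 0.28, 3.09 ± 0.28, 2.18 ± 0.32 and 1.56 ± 0.3 SE. All 4 were called (limma adjusted p = 8.75e-11, 3.8e-12, 1.3e-05 and 0.000882). Of the median rise at 4 weeks, 55.2% remained after 6 weeks of recovery and 29.8% at 10 weeks. The step between 4 weeks of bleomycin and 6 weeks of recovery was called (log2 -0.91 ± 0.32 SE, limma adjusted p = 0.0335), and this call was lost in 7 of the 44 fits that left out 1 mouse. Its largest adjusted p was 0.107, with log2 -0.76, without mouse 6 of the 6-week recovery group, and the call was also lost with no filter on low values (limma adjusted p = 0.054). Per kb of exon, the Myog level was 79.3% of the Myod1 level in saline by median, 309% at 2 weeks, 401% at 4 weeks, 212% after 6 weeks of recovery and 123% at 10 weeks. Myog was above Myod1 per kb in 4 of 10 saline mice and in 5 of 8 mice at 10 weeks of recovery. It was above in every mouse of both bleomycin groups and of the 6-week recovery group. These values rest on joined exon lengths of 1.495 kb for Myog and 1.861 kb for Myod1.

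Mymk, the membrane protein myomaker that myoblasts need to fuse (chromosome 2, 27061636 to 27072179), was close to the detection floor without bleomycin. In saline it ran from 1.14 to 19.5 normalized counts with a median of 5.38, and 4 of 10 mice had 3 reads or fewer. It ran from 40.3 to 284 at 2 weeks with a median of 104, and from 73.3 to 340 at 4 weeks with a median of 141. No bleomycin mouse overlapped saline. The rise was 11.9-fold at 2 weeks (log2 3.57 ± 0.46 SE, limma adjusted p = 2.39e-08) and 19.8-fold at 4 weeks (log2 4.31 ± 0.46 SE, limma adjusted p = 2.43e-10). The added count of 1 makes such folds too small for genes with few reads. After 6 weeks of recovery the values were 1.92 to 23.7 with a median of 15.1, and at 10 weeks 0 to 8.91 with a median of 3.52. Neither was called against saline (log2 0.69 ± 0.53 and -0.86 ± 0.48 SE, limma adjusted p = 0.437 and 0.343). Mymx, myomixer, the small peptide that acts with myomaker, rose by log2 2.69 ± 0.36 SE at 2 weeks and 3.32 ± 0.36 SE at 4 weeks. It was not called in recovery. In saline Mymx was also near the floor (0 to 4.85 normalized counts), with 8 of 10 mice at 3 reads or fewer.

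Of the 10 further myogenic factor and fusion genes outside the 9, 4 were called higher at 2 weeks (Mymx, Myf5, Myf6 and Mef2c) and 5 at 4 weeks, with Jam3 added. After 6 weeks of recovery 3 were called higher (Myf6, Mef2c and Jam3) and after 10 weeks 3 (Myf6, Mef2c and Six4). The medians of the 10 were 0.35, 0.55, 0.47 and 0.39 on the log2 scale. Myf6, the factor most active in formed fibres, was the largest rise in recovery, at log2 0.92 ± 0.2 SE at 6 weeks and 0.79 ± 0.18 SE at 10 weeks.

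Myh8, the neonatal (perinatal) myosin heavy chain (chromosome 11, 67277124 to 67308634), was called higher at 4 weeks than at 2 weeks. In saline it ran from 48.9 to 199 normalized counts with a median of 126. At 2 weeks it ran from 268 to 1819 with a median of 527, and at 4 weeks from 656 to 5270 with a median of 1645. Neither bleomycin group overlapped saline, although the 2 bleomycin groups overlapped each other. The rise against saline was 4.69-fold at 2 weeks (log2 2.23 ± 0.35 SE, limma adjusted p = 1.92e-06) and 14.9-fold at 4 weeks (log2 3.9 ± 0.35 SE, limma adjusted p = 3.54e-12), and the 4-week group was 3.18-fold above the 2-week group (log2 1.67 ± 0.35 SE, limma adjusted p = 0.00325). At 6 weeks of recovery it ran from 124 to 504 with a median of 304, and at 10 weeks from 133 to 400 with a median of 240. The 6-week value was called narrowly (log2 1.22 ± 0.41 SE, limma adjusted p = 0.0493), and the call was lost in 26 of the 44 fits that left out 1 mouse, and without both saline mouse 1 and 2-week bleomycin mouse 2 (log2 1.09, limma adjusted p = 0.0751). The 10-week value was not called (log2 0.95 ± 0.37 SE, limma adjusted p = 0.128), but it was when only the 2 groups were fitted (limma adjusted p = 0.0376). Myh8 is one of a cluster of closely similar myosin genes, so reads shared with Myh1, Myh2 and Myh4 make its level uncertain. Per kb of exon, Myh8 was 0.122% of the level of the adult fast myosin Myh4 by median in saline. It was 0.698% at 2 weeks, 2.47% at 4 weeks, 0.417% after 6 weeks of recovery and 0.235% at 10 weeks. These shares rest on joined exon lengths of 11.772 kb for Myh8 and 6.016 kb for Myh4.

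Of the 3 other contractile genes of developing muscle tested, 2 were called higher at 2 weeks and 3 at 4 weeks. Myl4, the embryonic and atrial myosin light chain, rose by log2 2.92 ± 0.27 SE at 2 weeks and 4.1 ± 0.27 SE at 4 weeks, and stood at 1.36 ± 0.31 SE after 6 weeks of recovery. Actc1, the cardiac actin of fetal muscle, rose by log2 2.53 ± 0.37 SE and 3.82 ± 0.37 SE under bleomycin and was not called in recovery (-0.33 ± 0.43 and -0.71 ± 0.39 SE). Tnnt2, the cardiac troponin T, was called at 4 weeks alone among the 4 comparisons (log2 0.82 ± 0.25 SE).

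Chrna1, the α subunit of the muscle acetylcholine receptor (chromosome 2, 73563215 to 73580338), had the smallest standard error of the 8 genes called at 4 weeks. In saline it ran from 29.8 to 65.2 normalized counts with a median of 49.5. At 2 weeks it ran from 260 to 473 with a median of 362, and at 4 weeks from 307 to 790 with a median of 466. Both groups were wholly above saline. The rise was 7.37-fold at 2 weeks (log2 2.88 ± 0.16 SE, limma adjusted p = 2.15e-18) and 9.71-fold at 4 weeks (log2 3.28 ± 0.16 SE, limma adjusted p = 5.24e-20). After 6 weeks of recovery it ran from 67.4 to 138 with a median of 88.3, still above every saline mouse, and at 10 weeks from 55.2 to 121 with a median of 82.9, above every saline mouse in 7 of 8 mice. These were called at 1.91-fold (log2 0.93 ± 0.19 SE, limma adjusted p = 0.00105) and 1.73-fold (log2 0.79 ± 0.17 SE, limma adjusted p = 0.0036). Of the median rise at 4 weeks, 9.32% remained after 6 weeks of recovery and 8.03% at 10 weeks.

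Chrng, the fetal γ subunit (chromosome 1, 87204657 to 87212694), went from near the floor to clear detection and back. In saline it ran from 0 to 11.8 normalized counts with a median of 3.52, and 6 of 10 mice had 3 reads or fewer. At 2 weeks it ran from 12.9 to 144 with a median of 49.4, and at 4 weeks from 32.9 to 154 with a median of 70.2. No bleomycin mouse overlapped saline. The rise was 10.3-fold at 2 weeks (log2 3.36 ± 0.44 SE, limma adjusted p = 4.83e-08) and 19.9-fold at 4 weeks (log2 4.31 ± 0.44 SE, limma adjusted p = 1.12e-10). After 6 weeks of recovery it ran from 0.962 to 9.23 and at 10 weeks from 0.886 to 8.91, within the range of saline, and neither was called (log2 0.42 ± 0.51 and 0.24 ± 0.47 SE).

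The fetal subunit was set against the adult one in each mouse, per kb of exon. The lengths were those of all annotated exons joined, 4.163 kb for Chrng and 1.69 kb for Chrne. By median, the Chrng level was 11.1% of the Chrne level in saline (0 to 40.6%), 73.7% at 2 weeks (17.6 to 217%), 95.2% at 4 weeks (40.6 to 325%), 8.36% after 6 weeks of recovery (1.93 to 13.5%) and 6.77% at 10 weeks (1.69 to 13.1%). Per kb, Chrng was above Chrne in 2 of 10 mice at 2 weeks and in 5 of 10 at 4 weeks. It was above in no mouse of the other 3 groups. Which subunit was above depends on these lengths, since in normalized counts the 4-week medians were 70.2 for Chrng and 29.7 for Chrne. Chrne itself was called higher at 2 weeks (log2 0.75 ± 0.2 SE) and 4 weeks (log2 0.97 ± 0.2 SE), so both parts of the ratio rose under bleomycin. A ratio of this kind shows only that the pair changed unequally.

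**Figure D3:**
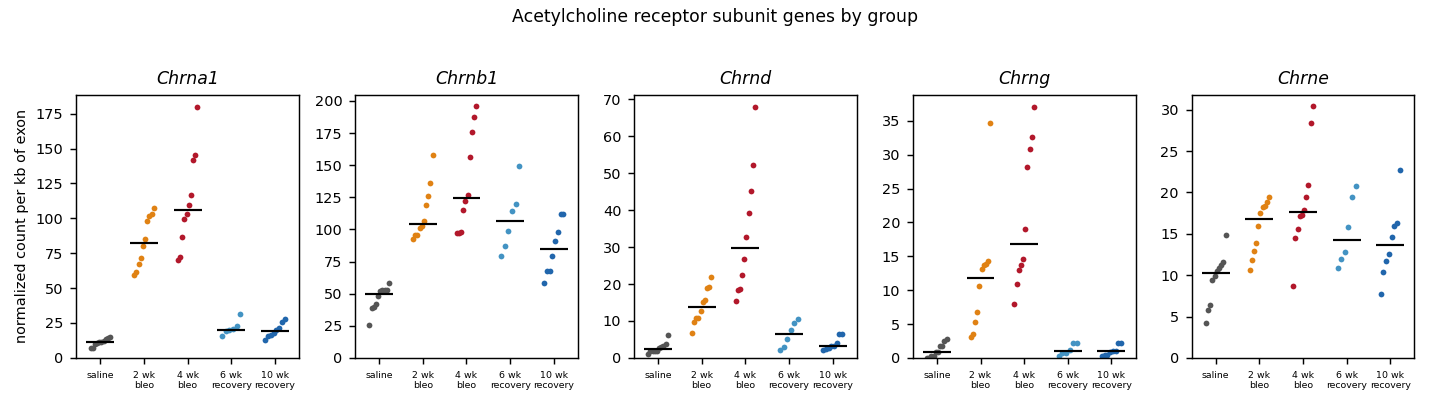
Normalized count per kb of exon (vertical, linear axes that start at 0 and differ between panels) of the 5 muscle acetylcholine receptor subunit genes in the 5 groups. Each point is 1 mouse and each bar is the group median. Chrna1 and Chrng drop from medians of 106 and 16.9 at 4 weeks of bleomycin to 20.1 and 1 at 6 weeks of recovery. Chrnb1 goes from 125 to 107 over the same step and stands at 85 at 10 weeks of recovery.

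Among the 12 other receptor and neuromuscular junction genes tested, 6 were called higher at 2 weeks, 7 at 4 weeks, 5 after 6 weeks of recovery and 1 at 10 weeks, and none was called lower. The medians of the 12 were 0.56, 0.82, 0.54 and 0.30 on the log2 scale. Chrnd, the δ subunit, rose most under bleomycin, by log2 2.32 ± 0.28 SE at 2 weeks and 3.49 ± 0.28 SE at 4 weeks. Chrnb1, the β subunit, was the largest rise in recovery, at log2 1.22 ± 0.17 SE at 6 weeks and 0.89 ± 0.16 SE at 10 weeks. Musk, the receptor kinase that assembles the junction, rose by log2 1.14 ± 0.23 SE and 1.73 ± 0.23 SE under bleomycin. Without saline mouse 1 and 2-week bleomycin mouse 2, the count after 6 weeks of recovery over the whole list of 14, Chrna1 and Chrng included, was 2 in place of 6. Agrn, Lrp4, Ache, Utrn and Etv5 were not called in any of the 4 comparisons. Etv5 missed the call on the fold threshold alone at 2 weeks (log2 -0.52 ± 0.11 SE, limma adjusted p = 0.000119). The same held for Etv5 after 6 weeks of recovery (log2 -0.4 ± 0.12 SE, limma adjusted p = 0.0288).

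Runx1, a transcription factor induced in denervated muscle and also made by blood cells and hair follicle cells (chromosome 16, 92601466 to 92826149), was called in none of the 4 comparisons with saline. It ran from 290 to 555 normalized counts in saline with a median of 388, from 416 to 644 at 2 weeks with a median of 477, and from 380 to 792 at 4 weeks with a median of 564. The groups overlapped in each comparison. The change at 4 weeks was 1.43-fold, under the fold threshold although its adjusted p was small (log2 0.52 ± 0.12 SE, limma adjusted p = 0.000435), and at 2 weeks it was 1.22-fold (limma adjusted p = 0.0554). In recovery the values ran from 397 to 488 at 6 weeks and from 348 to 698 at 10 weeks (log2 0.14 ± 0.14 and 0.2 ± 0.12 SE, not called). Of 9 leukocyte genes tested, 7 were called higher at both 2 and 4 weeks and none in recovery, and of 8 genes of the growing hair follicle all were called lower at 2 and 4 weeks and none in recovery. The summed leukocyte genes ran from 7569 to 20156 normalized counts in saline, from 20001 to 39296 at 2 weeks, from 17787 to 34758 at 4 weeks, from 11481 to 17093 after 6 weeks of recovery and from 9490 to 14409 at 10 weeks. The summed hair follicle genes ran from 2076 to 210414 in saline, from 152 to 2011 at 2 weeks, from 195 to 4718 at 4 weeks, from 276 to 95668 after 6 weeks of recovery and from 1485 to 156475 at 10 weeks. The largest leukocyte rise was that of Ncr1, a receptor of natural killer cells (log2 2.26 ± 0.28 and 1.44 ± 0.28 SE at 2 and 4 weeks), which was called lower after 10 weeks of recovery (log2 -1.27 ± 0.3 SE). The largest hair follicle fall was that of the keratin Krt25 (log2 -10.51 ± 1.25 and -8.34 ± 1.25 SE). No gene of either list was at 0 in every mouse of a group, and their part in the Runx1 values was not tested. Runx1 also shares exon bases with an annotated gene on the opposite strand, and the strand setting of the counts is not given in the sources used here.

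Ncam1, the neural cell adhesion molecule, which is found on nerves, Schwann cells, satellite cells and denervated fibres (chromosome 9, 49502136 to 49798925), was called higher at 4 weeks and not at 2. It ran from 95.9 to 204 normalized counts in saline with a median of 162, and from 85.1 to 364 at 2 weeks with a median of 188. At 4 weeks it ran from 220 to 561 with a median of 333, above every saline mouse. The 4-week value was 2.12-fold that of saline (log2 1.08 ± 0.19 SE, limma adjusted p = 1.76e-05) and 1.77-fold that of the 2-week group (log2 0.82 ± 0.19 SE, limma adjusted p = 0.00876), whereas the 2-week value was not called (log2 0.26 ± 0.19 SE, limma adjusted p = 0.315). At 6 weeks of recovery it ran from 192 to 248 with a median of 211, and at 10 weeks from 120 to 208 with a median of 143, and neither was called against saline. The step between 4 weeks of bleomycin and 6 weeks of recovery was called (log2 -0.64 ± 0.22 SE, limma adjusted p = 0.0322) and was lost in 7 of the 44 fits that left out 1 mouse, with a largest adjusted p of 0.0673 without mouse 6 of the 6-week recovery group, and with no filter on low values (limma adjusted p = 0.0515). Ncam1 also overlaps an annotated gene on the opposite strand.

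Schwann cell genes moved over the same samples. Of 10 tested, 2 were called higher at 2 weeks, 8 at 4 weeks, 8 after 6 weeks of recovery and 6 at 10 weeks. Their summed level ran from 3175 to 7520 normalized counts in saline, from 4081 to 9098 at 2 weeks, from 6720 to 9909 at 4 weeks, from 6950 to 11057 after 6 weeks of recovery and from 5842 to 10409 at 10 weeks, and none was at 0 in every mouse of a group. Cdh19, a cadherin of Schwann cells, was the largest rise at 4 weeks and after 10 weeks of recovery (log2 1.35 ± 0.21 and 0.81 ± 0.23 SE). Without saline mouse 1 and 2-week bleomycin mouse 2 the count was 5 at 4 weeks and 3 after 10 weeks of recovery. The part of these genes in the Ncam1 values was not tested. Of 9 dermal papilla genes, 3 were called lower at 2 weeks, 3 lower and 2 higher at 4 weeks, 2 higher after 6 weeks of recovery and none at 10 weeks. Corin, a protease of the papilla, was the largest fall (log2 -2.42 ± 0.45 and -1.69 ± 0.45 SE at 2 and 4 weeks), and the largest rises were Crabp1 at 4 weeks (log2 1.35 ± 0.2 SE) and Sox2 after 6 weeks of recovery (log2 1.09 ± 0.31 SE).

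Of the denervation and atrophy list, 10 genes were tested beside the 5 that are among the 9. At 2 weeks 2 were called higher, at 4 weeks 1, after 6 weeks of recovery none and at 10 weeks 1 (Dach2). Of all genes tested, 9.3%, 10.5%, 3.33% and 2.05% were called higher in the same order. None of the 10 was called lower. The medians of the 10 were 0.04, 0.10, -0.10 and 0.03 on the log2 scale. Trim63, MuRF1, a ubiquitin ligase of muscle atrophy, was called higher at 2 weeks (log2 0.78 ± 0.3 SE, limma adjusted p = 0.036) and not at 4 weeks (log2 0.67 ± 0.3 SE, limma adjusted p = 0.0745). Fbxo32, atrogin-1, another such ligase, stood at log2 0 ± 0.16 and 0.15 ± 0.16 SE at the same times and was not called. Dach2, a repressor of Myog, was called higher after 10 weeks of recovery (log2 1.33 ± 0.31 SE) on very few reads. All 10 saline mice had 3 reads or fewer of it (0 to 3.42 normalized counts), and the 10-week mice ran from 2.82 to 14.6.

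The direct comparisons gave the order of the groups. Between 2 and 4 weeks of bleomycin, 2 of the 9 genes were called higher, Myh8 and Ncam1, against 1.49% of all genes. Between 4 weeks of bleomycin and 6 weeks of recovery, 7 of the 9 were called lower, against 7.14% of all genes, and Myod1 (log2 0.11 ± 0.29 SE) and Runx1 (log2 -0.38 ± 0.14 SE) were not. The largest of these falls was that of Chrng, by log2 -3.9 ± 0.51 SE, followed by Mymk at -3.61 ± 0.53 SE, Myh8 at -2.68 ± 0.41 SE and Chrna1 at -2.35 ± 0.19 SE. Between 6 and 10 weeks of recovery limma called none of the 9, where it called 15 genes, or 0.088%, of all tested. At an unadjusted p under 0.05 there were 2, Mymk (p = 0.00707) and Ncam1 (p = 0.0388), and edgeR and DESeq2 called 0 as well. After 10 weeks of recovery 7 of the 9 were called lower than at 4 weeks of bleomycin, where 9.1% of all genes were, and these were all but Myod1 and Runx1. Against 2 weeks of bleomycin, 4 of the 9 were called lower after 6 weeks of recovery, where 8.21% of all genes were. These were Pax7, Mymk, Chrna1 and Chrng, whereas Myh8, Myog, Myod1, Runx1 and Ncam1 were not called. After 10 weeks of recovery 6 of the 9 were called lower than at 2 weeks of bleomycin, where 8.78% of all genes were. These were Pax7, Myog, Mymk, Myh8, Chrna1 and Chrng. In the order of medians, the 2-week and 4-week groups were not told apart for Pax7, Myod1, Myog, Mymk, Chrna1, Chrng and Runx1, and the 2 recovery groups were not told apart for any of the 9.

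By overlap, 5 of the 9 genes were above saline in every mouse at 2 weeks (Chrna1, Chrng, Mymk, Myog and Myh8), where 3.44% of all genes were. At 4 weeks 7 were, with Pax7 and Ncam1 added, against 4.31%. At 6 weeks of recovery 3 were (Chrna1, Myog and Myod1), against 1.41%. At 10 weeks none of the 9 was, against 0.282%.

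The 4-week mice differed widely among themselves. Mice 5, 8 and 10 had the 3 highest values of the group for 8 of the 9 genes, all but Runx1. Their Myh8 was 5270, 4140 and 3439 normalized counts, and the next mouse had 2503. Their Chrng was 154, 136 and 128.5, and the next had 117. Their mature fibre scores were 12.54, 12.7 and 12.75, the highest 3 of the group. At 2 weeks, mice 3 and 10 had Myh8 of 1819 and 1711 normalized counts, and the next mouse had 721.

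The mature fibre score also moved with the groups, with medians of 12.26 in saline, 12.37 at 2 weeks, 12.39 at 4 weeks, 12.68 after 6 weeks of recovery and 12.79 at 10 weeks. The summed normalized counts of the same genes had medians of 349254, 326262, 312633, 353795 and 388106 in that order. The score weighs its genes equally, whatever their level. Of its 21 genes, 4 were called higher at 2 weeks, 6 higher and 1 lower at 4 weeks, and 5 higher in each recovery group. Neb, the thin filament ruler nebulin, was the largest rise at 2 weeks (log2 1.31 ± 0.37 SE), and Myh7, the slow myosin, in the other 3 (log2 2.41 ± 0.83, 4.9 ± 0.95 and 4.97 ± 0.88 SE). Pvalb, the calcium buffer of fast fibres, was the fall at 4 weeks (log2 -0.91 ± 0.21 SE).

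With this score as a covariate, 7 and 9 of the 9 genes were called at 2 and 4 weeks, the latter with Runx1 at log2 0.6. In recovery the counts fell to 2 at 6 weeks, Myog and Chrna1, and to 0 at 10 weeks. At 6 weeks Myh8 became log2 0.43 (limma adjusted p = 0.487) and Myod1 0.46 (limma adjusted p = 0.235). At 10 weeks Myog became 0.81 (limma adjusted p = 0.0903), Myod1 0.41 (limma adjusted p = 0.326) and Chrna1 0.42 (limma adjusted p = 0.166). With a score of fast fibre genes, chosen after the data were seen and without Myh7, Myh2, Mb, Des, Ttn and Neb, 3 genes were called in each recovery group. At 10 weeks these were Myog (log2 1.29, limma adjusted p = 0.00234), Myod1 (0.86, limma adjusted p = 0.0131) and Chrna1 (0.64, limma adjusted p = 0.0102). Without mouse 5 of the 6-week recovery group, which had the highest Myog, Myod1, Myh8 and Pax7 of its group and a score of 13.17, the count at 6 weeks was 2, with Myh8 at log2 1.04 (limma adjusted p = 0.171) and Myod1 at an adjusted p of 0.0619.

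Within groups, 6 of the 9 genes went up with the mature fibre score. Pearson's r over the 44 mice, after group means were taken off, was 0.68 for Myod1, 0.61 for Myog, 0.6 for Pax7, 0.59 for Myh8, 0.53 for Chrna1 and 0.44 for Ncam1. Their p-values, from a permutation test within groups adjusted over the 9 relations, were 3e-05, 3e-05, 0.000135, 3e-05, 0.000612 and 0.0048. Spearman's rho was 0.6, 0.57, 0.55, 0.6, 0.55 and 0.51 in the same order, with adjusted permutation p-values of 0.00018, 0.00036, 0.00036, 0.00018, 0.000504 and 0.00099. Without the 2 mice farthest from the median score, r was 0.57, 0.52, 0.45, 0.55, 0.47 and 0.4. Runx1 went the other way (r = -0.37, permutation p = 0.0226, adjusted 0.0291), but its rho of -0.26 did not pass (adjusted permutation p = 0.112). Chrng and Mymk had r = 0.26 and 0.25 (adjusted permutation p = 0.145 for both) and rho = 0.38 and 0.37 (adjusted permutation p = 0.0202 and 0.0212). In single groups r ran from 0.57 to 0.94 for Myog, from 0.6 to 0.77 for Myod1, from 0.41 to 0.72 for Pax7, from 0.59 to 0.91 for Myh8 and from 0.33 to 0.83 for Chrna1. For Ncam1 it ran from -0.11, in saline, to 0.85, so 1 group went the other way. It ran from -0.24 to 0.9 for Chrng, from -0.25 to 0.79 for Mymk and from -0.86 to 0.55 for Runx1.

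**Figure D4:**
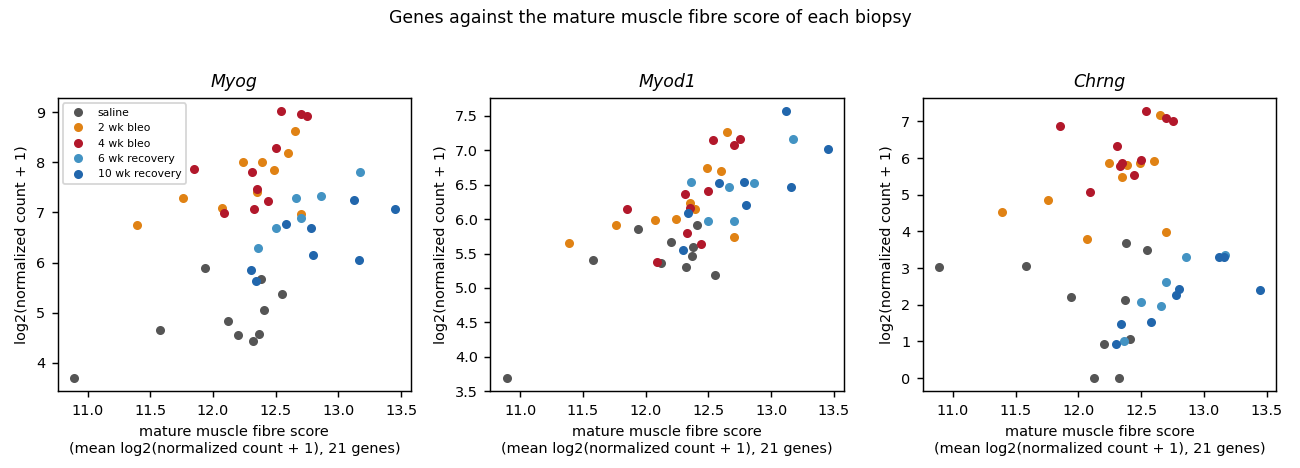
Log2(normalized count + 1) of Myog, Myod1 and Chrng (vertical) against the mature muscle fibre score of each biopsy (horizontal, the mean log2(normalized count + 1) of 21 genes). Each point is 1 of the 44 mice, coloured by group. The saline mouse at a score of 10.89 holds the lowest Myod1, and the recovery mice reach the highest scores, up to 13.45, with Chrng at saline levels.

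The genes most like each of the 9 were found by Pearson's r over the 44 mice after group means were taken off, as a description over libraries that share depth and tissue makeup. Chrnb1 was the most alike for Myog (r = 0.91), Myod1 (r = 0.84), Pax7 (r = 0.75) and Chrna1 (r = 0.74). Myog was followed by Myh8 (0.87) and Myod1 (0.83), Myod1 was also close to Myog (0.83), Pax7 was followed by Ip6k3 and Tbx4 (0.74 each), and Chrna1 by Igf2 and Myog (0.72 each). For Myh8 they were Igf2 (0.9), Myog (0.87) and Actc1 (0.85). Mymk and Chrng were each other's most alike gene (0.77), each followed by Myl4 (0.75), then Pnmal2 (0.68) for Mymk and Tnnc1 (0.72) for Chrng. Ncam1 went with Nes (0.81), Map1b (0.8) and Tgfb3 (0.79). Runx1 went with Orai2 (0.84), Rflna (0.83) and Eya2 (0.78), none of which was among the 3 most alike of the other 8, and its r with Myog was 0.03.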

How the data were processed

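RNA from the back skin of 44 mice was sequenced as paired-end reads from stranded mRNA libraries. Per the labels and the study's methods, the authors aligned reads to mm10 with STAR 2.4.0 and scaled gene counts by DESeq2 1.12.3 size factors, and this signal, normalized counts per gene, was deposited. The counting tool, strand setting and annotation are not given in the sources used here. Whole reads were recovered (100.0% of values within 0.01 read in every mouse), and 0 columns were left unassigned. Symbols came from GENCODE (GRCm38), matching 42929 of 43411 identifiers, and 14600 genes had no read.

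Groups follow the labels. Genes with a mean above 3 (17037) were tested with limma 3.58.1 in R 4.3.3 on log2(normalized count + 1), with all 44 mice and 5 groups in 1 fit and Benjamini-Hochberg adjustment. Alternatives were other pseudocounts (0.1 and 5), filters and scalings, fits restricted to a pair of groups, a block for the replicate number, leaving out mice, muscle scores as covariates, and edgeR 4.0.16 and DESeq2 1.42.0 on the recovered reads. The limma, edgeR and DESeq2 fits were also run on simulated counts in which 200 of 17037 genes changed 3-fold. Each called all 200, and 11, 10 and 17 unchanged genes in that order. The changed genes were not drawn from those with low counts. No mice were duplicates of each other (smallest chi-square per degree of freedom 5.06). The labels do not say whether mice shared cages or litters. The p-values set group differences against the spread between mice within groups and take the mice as independent, which could not be checked.

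The genes and lists were chosen with earlier results of these data known. Besides the 9 genes, the text names from each list the largest rise and the largest fall called against saline, and the 3 genes most alike to each of the 9, except for some that are not reported here. Other list genes named where a count is spelled out, the individual mice singled out and Chrne, Musk, Actc1, Tnnt2, Fbxo32, Trim63, Acta1, Krt14 and Col1a1 were chosen after values were seen. The comparisons of 10 weeks of recovery with each bleomycin group and of 6 weeks of recovery with 2 weeks of bleomycin, and the fast fibre score, were chosen with the data in view. The promoter sequences are of RefSeq. Of the 9 genes, Myod1, Mymk and Ncam1 had no entry. Correlations were tested with 100000 permutations within groups.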

Additional observations from a re-analysis of the deposited data

Results flagged for a closer look

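In 45 tests for a sample far from the rest of its group (9 genes in 5 groups, of which chance flags about 1 in 20), 3 mice stood out. Myod1 was 11.9 normalized counts in saline mouse 1, below the 35.5 of the next saline mouse, in the biopsy with the lowest mature muscle fibre score, 10.89. Runx1 was 380 in mouse 3 of the 4-week bleomycin group, and the next mouse had 538. Ncam1 was 95.9 in saline mouse 2, and the next had 148.

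The effect of bleomycin differed between 2 and 4 weeks for Myh8, by 1.67 on the log2 scale, and for Ncam1, by 0.82, both called by limma in the direct comparison of the 2 groups.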

How the results depend on the processing

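Of the 4 comparisons with saline, the counts of called genes at 2 and 4 weeks of bleomycin, 7 and 8 of 9, stayed within 7 and within 8 to 9 under every alternative run. At 6 weeks of recovery the count of 4 became 2 with the mature fibre score as a covariate, and ran from 2 to 4 over the fits without 1 mouse (lowest without mouse 5 of that group). At 10 weeks of recovery the count of 3 became 0 with that covariate, and 4 when only the 2 groups were fitted, where Myh8 was called (adjusted p = 0.0376). Between 4 and 2 weeks of bleomycin the count of 2 became 1 when only the 2 groups were fitted, where Ncam1 (log2 0.82) had an adjusted p of 0.0597. Myh8 at 6 weeks of recovery against saline also lost its call with a pseudocount of 5, with no filter and with quantile normalization (adjusted p = 0.0524, 0.0783 and 0.0504), and with no filter Myog and Ncam1 lost theirs between 4 weeks of bleomycin and 6 weeks of recovery (adjusted p = 0.054 and 0.0515). The cause was not tested. Without saline mouse 1 and 2-week bleomycin mouse 2, the correlations of Mymk and Chrng with the mature fibre score passed the test at r = 0.37 and 0.39 (adjusted permutation p = 0.0239 and 0.0158).

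Values that changed sign were small and not called. With the mature fibre score these were Pax7 at 6 and 10 weeks of recovery against saline (-0.34 and -0.35), Chrng there (-0.01 and -0.26), Myod1 at 4 against 2 weeks of bleomycin (-0.03), at 6 weeks of recovery against 4 weeks of bleomycin (-0.21) and between the recovery groups (-0.05), and Pax7 between the recovery groups (-0.01). With the fast fibre score they were Myod1 at 6 weeks of recovery against 4 weeks of bleomycin (-0.19) and between the recovery groups (0.0). On recovered reads Chrng at 10 weeks of recovery was -0.04 by edgeR and -0.06 by DESeq2. Leaving out 1 mouse at a time, the lowest and highest values of those that changed sign were 0.0 and 0.2 for Myod1 between the bleomycin groups, -0.03 and 0.21 for Myod1 at 6 weeks of recovery against 4 weeks of bleomycin, and, between the recovery groups, -0.1 and 0.2 for Myod1, -0.03 and 0.28 for Pax7, -0.46 and 0.01 for Chrng and -0.02 and 0.12 for Runx1.

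Mice with the same replicate number are different animals and share only that number, with a median correlation of their deviations between -0.12 and 0.04 over the comparisons. With the replicate number as a block, Ncam1 at 10 weeks of recovery against saline was 0.01 and Pax7 between the recovery groups -0.04, and 1 call was lost, Ncam1 at 6 weeks of recovery against 4 weeks of bleomycin (-0.5, adjusted p = 0.0883). Depth limits the genes where mice with 3 reads or fewer occur, among them Pax7, Mymk, Chrng, Dach2, Mymx, Myf5, Myh7, Musk, Ncr1 and Krt25.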
